A study of Mus musculus with 25 samples.

Results

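Mediator is the multi-subunit complex that links DNA-bound activators to RNA polymerase II. Its genes were taken as every row whose symbol is Med followed by a number, with or without a final l, plus Ccnc, Cdk8 and Cdk19. The rule found 33 of the 24412 gene symbols in the deposited expression values, and all 33 were present in each of the 25 libraries and passed the filter on low values. By the usual structural division they fell into 7 head genes, 9 middle genes, the scaffold gene Med14, 9 tail genes and 7 kinase-module genes. The place of Med27, Med28, Med29 and Med30 differs between published structures, and they were counted here in the tail.

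RNA was sequenced from mouse eggs and embryos labelled Smarca4 KO (knockout) or wild type (WT). The stages were MII oocytes (2 KO and 3 WT libraries), PN3 zygotes (4 KO and 4 WT), early 2-cell embryos (E2C, 3 KO and 3 WT) and late 2-cell embryos (L2C, 3 KO and 3 WT). Smarca4 (also called Brg1) encodes an ATPase that drives the BAF chromatin remodeller. The labels' protocols describe superovulated females of 8 to 12 weeks, either Smarca4flox/flox Gdf9 Cre animals on C57BL/6 or B6D2F1 hybrids, whose oocytes were collected for sperm injection. Gdf9 Cre acts in the oocyte, so an embryo labelled KO is one whose egg carried the deletion, and the sources used here do not give the sperm's Smarca4 allele. They also do not tie a strain to each library, so strain and genotype cannot be told apart. Separate females are not stated for the replicates, and the p-values below measure only the spread between these libraries, which may be technical.

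The core of Mediator consists of head, middle and tail modules held together by the long scaffold subunit Med14. The head and middle contact RNA polymerase II, and the tail carries many of the surfaces that activators bind. The kinase module, made of a cyclin-dependent kinase, cyclin C, a Med12 protein and a Med13 protein, binds the core reversibly and blocks its contact with the polymerase. In the mouse the oocyte is transcriptionally silent when ovulated, a minor wave of embryonic transcription begins in the zygote, and the major wave comes in the late 2-cell embryo while maternal RNA is being cleared.

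Values are FPKM (fragments scaled to transcript length and library total), made by the authors and rescaled between libraries, so that levels can be compared between genes per length. They are relative to the rest of a library's RNA, and fewer cells and less RNA per cell cannot be told apart. The read depth is unknown. Libraries of one group varied more among 2-cell embryos than among oocytes and zygotes, with a median standard deviation (log2) of 0.08 in the MII libraries, 0.13 in the PN3 ones, 0.35 in the E2C ones and 0.32 in the L2C ones. Smarca4 itself averaged 0.220 in KO and 28.0 in WT at MII, 0.315 in KO and 31.1 in WT at PN3, 2.57 in KO and 28.4 in WT at E2C, and 22.0 in KO and 71.0 in WT at L2C. WT E2C replicate 2 had 9345 genes above 0, against 13585 or more in each other library, and listed Med8, Med11 and Med18 at 0. WT L2C replicate 3 also stood apart: the summed level of 8 oocyte markers at L2C was 620, 845 and 870 in KO, and 285 and 352 in WT replicates 1 and 2 but 760 in WT replicate 3. All 8 oocyte markers were detected, the 4 blood markers summed to at most 0.836 in any library, and the 8 cumulus and granulosa markers to at most 1.57. The 6 sperm and testis markers summed to at most 8.85, except for 20.3 in KO E2C replicate 2.

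The net change from oocyte to late 2-cell embryo, described further on, was led by rises of Med29 (tail) and Med13 (kinase module) and a fall of Med17 (head). The bases upstream of these 3 genes are shown because they are the starts of the genes that moved most in WT. They come from the RefSeq promoter table (GRCm38.p6), read 5′ to 3′ on the gene's strand with annotated exons left out, and in each the next base is the annotated start of a transcript. Capitals mark, in either orientation, the CCAAT box (CCAAT), the GC box (GGGCGG), the TATA box (TATAAA) and the ETS-type core (CCGGAAG).
Med29: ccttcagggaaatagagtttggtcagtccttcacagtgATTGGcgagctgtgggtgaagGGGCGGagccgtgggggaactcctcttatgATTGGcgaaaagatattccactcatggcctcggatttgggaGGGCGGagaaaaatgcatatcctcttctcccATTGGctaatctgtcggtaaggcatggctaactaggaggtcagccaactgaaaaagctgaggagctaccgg
Med13: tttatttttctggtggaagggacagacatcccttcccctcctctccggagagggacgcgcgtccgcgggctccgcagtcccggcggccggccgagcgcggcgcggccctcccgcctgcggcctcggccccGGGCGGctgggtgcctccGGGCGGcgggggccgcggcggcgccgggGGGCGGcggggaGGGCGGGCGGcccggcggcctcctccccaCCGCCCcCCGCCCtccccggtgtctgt
Med17: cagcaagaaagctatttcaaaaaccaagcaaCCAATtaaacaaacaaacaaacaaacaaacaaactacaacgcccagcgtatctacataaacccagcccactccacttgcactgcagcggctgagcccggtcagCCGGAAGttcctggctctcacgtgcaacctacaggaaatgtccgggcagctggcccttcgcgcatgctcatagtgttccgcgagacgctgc
The Med29 stretch is chr7:28392709-28392940 on the minus strand, 52.2% G or C, and holds 3 CCAAT boxes and 2 GC boxes. The Med13 stretch is chr11:86357603-86357846 on the minus strand, 81.1% G or C, and holds 7 GC boxes, some of them overlapping, and none of the other letters. The Med17 stretch is chr9:15279932-15280156 on the minus strand, 52% G or C, and holds 1 CCAAT box and 1 ETS-type core. Promoter windows were found for 28 of the 33 members, with 1 window used for each. The 32851 background windows were not reduced to 1 per gene or limited to genes expressed here. Motifs were counted in whole windows, which run past the transcript start, while the printed stretches and the G or C contents cover upstream bases only. GC boxes were present in 64.3% of the 28 member windows and in 35.7% of all 32851 windows, and ETS cores in 25% and 8.86%. CCAAT was present in 39.3% of member windows and 37.4% of all, and TATAAA in 10.7% and 13.6%. The member windows had a median G or C content of 56.8%, against 52.4% over all windows. These matches describe the letters only.

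The total of Mediator RNA stayed near one level while its make-up shifted. Summed over the 33 members, it was 843 ± 9.40 in KO (SD, n = 2) and 831 ± 4.16 in WT (n = 3) at MII, and 825 ± 25.4 in KO and 817 ± 11.8 in WT at PN3 (n = 4 each). It was 873 ± 21.8 in KO and 867 ± 15.3 in WT at E2C, and 890 ± 22.5 in KO and 909 ± 28.5 in WT at L2C (n = 3 each). The lowest library sum was 800.1 and the highest 929. Every L2C library, at 866.3 or more, was above every MII and PN3 library, at 852.8 or less. This order holds for the rescaled values. The rescaling divided the MII and PN3 libraries by 1.04 to 1.11 and the L2C libraries by 0.888 to 0.987, and sums without it are not given here. Within this total the head module took 22.3% in KO and 23.2% in WT oocytes, but 8.09% in KO and 10.5% in WT late 2-cell embryos. The kinase module took 9.29% in KO and 9.68% in WT oocytes, and 17.5% in KO and 19.2% in WT late 2-cell embryos.

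**Figure D1:**
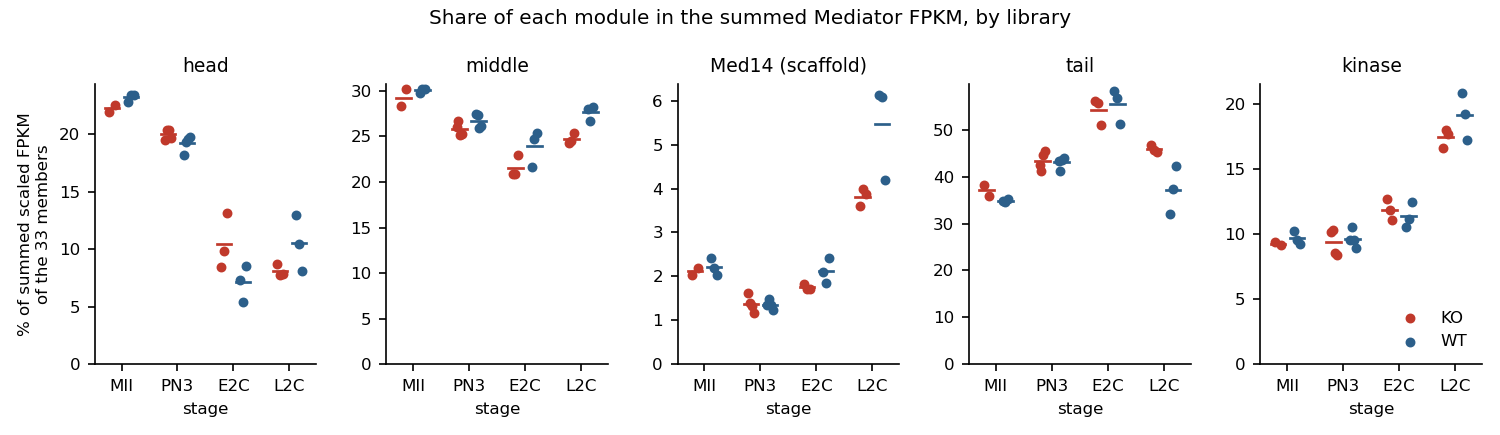
Share of each Mediator module in the summed scaled FPKM of the 33 members (y axis, percent) at each stage (x axis), with KO left of WT. Points are libraries and bars are group means. The head share is between 21.96 and 23.42% in the oocyte libraries and between 7.74 and 12.97% in the late 2-cell libraries. The tail share, with Med27 to Med30 counted in it, is highest at E2C.

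The tail module peaked in between, with 54.3% ± 2.88 of the total in KO and 55.5% ± 3.80 in WT early 2-cell embryos (SD, n = 3 each). The head and tail shares depend on counting Med27 to Med30 in the tail. With them in the head, the head share at E2C is close to that in oocytes in both genotypes and falls only by L2C. The WT tail share is then nearly level from PN3 on, and the KO tail share is still highest at E2C. At E2C the tail sum averaged 473.7 in KO and 480.6 in WT. Of this, Med27 held 111.5 in KO and 122.8 in WT, and Med30 120.9 in KO and 149.1 in WT. At L2C the tail took 45.9% ± 0.815 in KO and 37.2% ± 5.10 in WT. The WT libraries there ran from 32.0 to 42.2%, all below the KO libraries at 45.2 to 46.8%. The middle module took 29.3% in KO and 30.1% in WT oocytes, and 24.7% in KO and 27.7% in WT late 2-cell embryos. Med14 alone took 2.12% in KO and 2.21% in WT oocytes, against 3.82% in KO and 5.47% in WT late 2-cell embryos. No test was run on these shares, since a share falls whenever another part of the sum rises.

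In the head module, Med17 fell furthest. Med17 is the head's central architectural subunit. In KO it was at 57.9 and 61.3 in oocytes, 52.0, 55.2, 55.0 and 56.2 in zygotes, 13.7, 14.2 and 17.8 at E2C, and 5.00, 5.97 and 7.34 at L2C. In WT it was at 66.7, 69.8 and 68.8 in oocytes, 43.0, 48.4, 54.9 and 51.3 in zygotes, 7.62, 5.87 and 10.3 at E2C, and 13.2, 7.60 and 4.41 at L2C. Every oocyte and zygote library was above every 2-cell library in both genotypes. From MII to L2C the log2 difference was -3.11 ± 0.20 in KO (SE; limma adjusted p = 3.59e-12) and -3.0 ± 0.19 in WT (adjusted p = 3.18e-12). The step from PN3 to E2C held most of it, with -1.78 in KO and -2.52 in WT, both called. Med17 fell further from E2C to L2C in KO (-1.20, adjusted p = 0.00151), while the WT libraries of the 2 stages did not differ detectably (adjusted p = 0.992).

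Med8, which in yeast joins the jaw-like Med18 and Med20 to the rest of the head, also fell from MII to L2C, by 2.20 in KO and 1.16 in WT (log2). Its levels at L2C were 6.87, 5.08 and 4.62 in KO and 14.7, 11.5 and 6.55 in WT, against 27.7 to 29.6 in KO and 23.9 to 25.3 in WT oocytes. Med8 was listed at 0 in WT E2C replicate 2 and at 4.15 and 5.15 in the other WT E2C libraries, against 4.40, 6.14 and 10.5 in KO. Med11, which in yeast pairs with Med22, was listed at 0 in WT E2C replicates 1 and 2 and at 2.19 in replicate 3, against 1.22, 3.47 and 5.89 in KO E2C. By L2C Med11 stood at 8.33, 4.57 and 7.37 in KO, against 11.9, 18.7 and 6.73 in WT. The WT libraries of the 2 stages did not overlap, and the KO libraries did. It was called higher from E2C to L2C in WT (log2 3.09, adjusted p = 7.49e-06; 2.81 without WT E2C replicate 2). In KO the same step had a log2 difference of 0.89 (adjusted p = 0.135), and the difference between the genotypes is given below. Med6 and Med22 fell from MII to L2C in both genotypes, by 0.58 to 0.88. Med20 ended where it began: its MII to L2C differences were -0.08 in KO and 0.05 in WT, with a called fall from PN3 to E2C and a called rise from E2C to L2C in both.

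**Figure D2:**
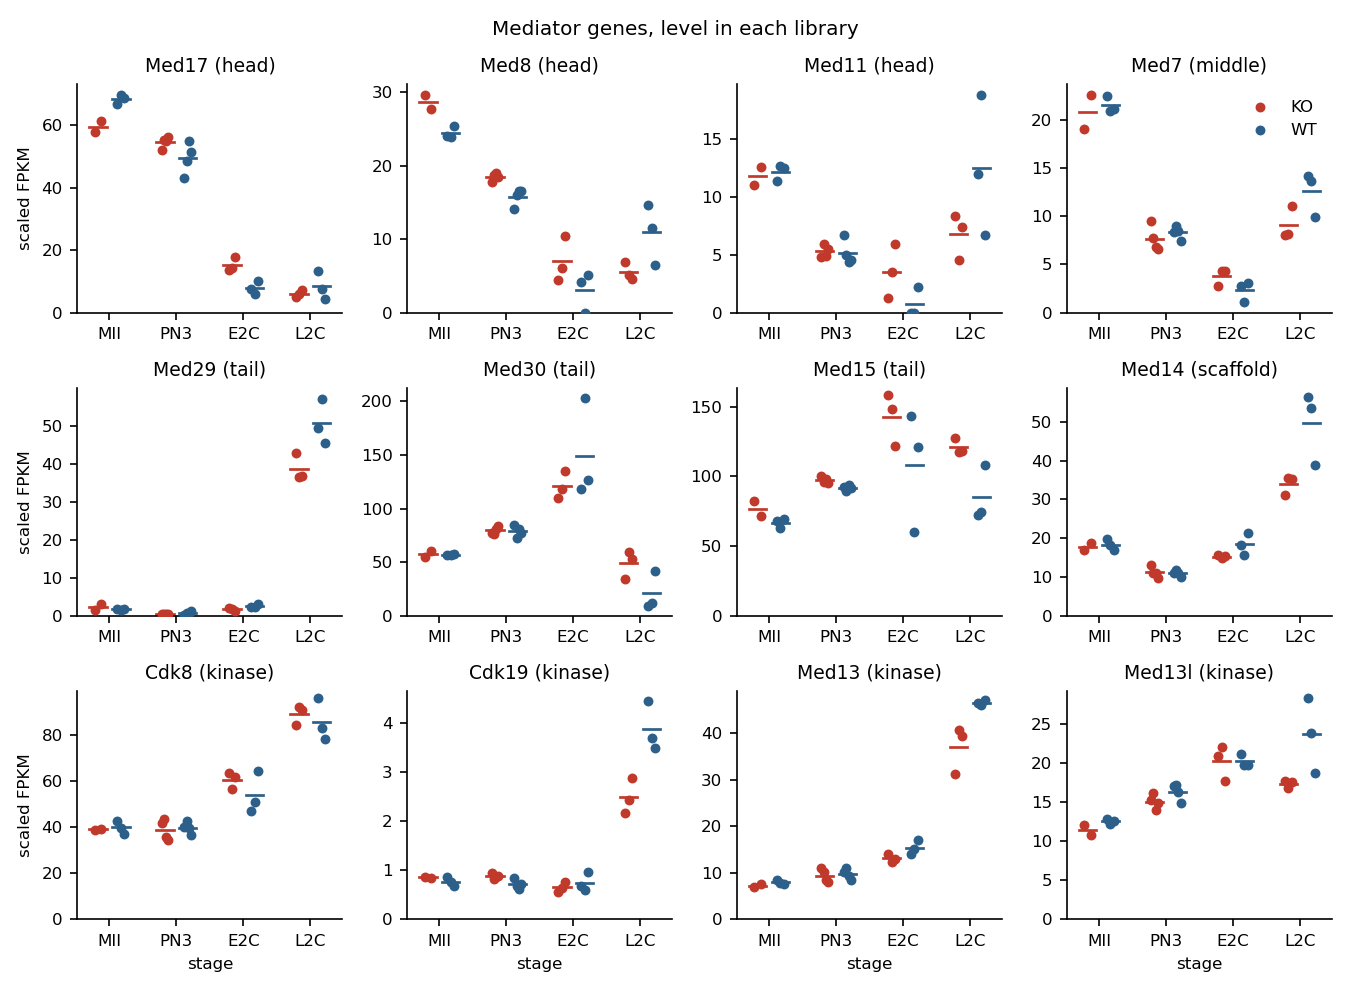
Scaled FPKM (y axis, linear from 0) of 12 Mediator genes at each stage (x axis), with KO left of WT. Points are libraries and bars are group means; Med17 is between 43.0 and 69.8 in oocytes and zygotes and between 4.41 and 17.8 in 2-cell libraries, and Med29 is at most 3.24 before L2C and at least 36.38 at L2C.

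The middle module held both directions. Med1, the subunit that binds nuclear receptors, was at 15.6 and 15.9 in KO oocytes, against 15.7, 18.4 and 15.5 in WT oocytes. In late 2-cell embryos it was at 35.3, 37.4 and 37.5 in KO, against 37.4, 32.9 and 36.8 in WT. All late 2-cell libraries were above all oocyte libraries, and Med1 rose by 1.17 ± 0.16 in KO (log2, SE; limma adjusted p = 1.11e-06) and 1.07 ± 0.16 in WT (adjusted p = 2.74e-06). Med7, which in yeast pairs with Med21 at the hinge of the middle module, fell between oocyte and zygote by 1.34 in KO and 1.27 in WT. It was at 2.80, 4.28 and 4.33 in KO, against 2.72, 1.14 and 3.04 in WT at E2C, and rose again from E2C to L2C by 1.07 in KO and 2.08 in WT. Med19 and Med21 ended lower than in oocytes in both genotypes, Med21 at L2C at 11.3, 17.2 and 20.5 in KO, against 9.68, 5.76 and 12.3 in WT. Med26, which recruits elongation factors in human cells, fell from PN3 to E2C by 0.93 in KO and 1.40 in WT. Med4 and Med31 were not called from MII to L2C in either genotype, and neither was Med10. For Med10, 92.8% of the annotated exon bases overlap a non-coding gene on the opposite strand. The sources used here do not say whether counting used strand, so reads of the pair may not be told apart. The next largest overlaps with a gene on the opposite strand covered 26.3% of the exon bases of Med31, 21.4% of Med20 and 21.2% of Med7. They covered 15.3% of Med12l, 12.7% of Med26 and 11.9% of Med19. The partners of Med12l (Igsf10) and Med19 (Zdhhc5) are protein-coding. Overlaps on the same strand, which counting by strand would not separate, covered 9.72% of Med12 and 7% of Med20.

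Med14, the scaffold, was at 17.0 and 18.7 in KO, against 19.9, 18.2 and 16.9 in WT oocytes. It fell in zygotes to between 9.86 and 13.1 in KO and between 10.1 and 11.9 in WT, a log2 difference of -0.62 in KO and -0.68 in WT. At L2C it stood at 31.2, 35.6 and 35.2 in KO, against 56.4, 53.4 and 38.9 in WT, above every earlier library of both genotypes. The rise from E2C to L2C was 1.10 ± 0.25 in KO (log2, SE; limma adjusted p = 0.00126) and 1.38 ± 0.25 in WT (adjusted p = 8.74e-05).

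The tail module held the largest single rise. Med29, a metazoan subunit, was at 1.66 and 3.02 in KO, against 1.90, 1.60 and 1.89 in WT oocytes. It was between 0.495 and 0.607 in KO and between 0.201 and 1.22 in WT zygotes, and between 1.34 and 2.11 in KO and between 2.25 and 3.24 in WT at E2C. At L2C it stood at 42.8, 36.4 and 36.8 in KO, against 49.5, 57.1 and 45.5 in WT, with no overlap with any earlier stage. The rise from E2C to L2C was 3.84 ± 0.48 in KO (log2, SE; limma adjusted p = 1.25e-06) and 3.85 ± 0.48 in WT (adjusted p = 6.50e-07). Med16, a tail subunit near 1 FPKM until E2C, rose from MII to L2C by 1.63 in KO and 2.03 in WT, and reached 7.26, 3.86 and 3.11 in KO and 7.74, 10.9 and 3.21 in WT. Med25, the target of the VP16 activator, rose by 0.72 in KO and 1.09 in WT over the same interval. Med23, which is bound by Elk1, and Med28 fell in both genotypes, Med23 by 1.19 in KO and 0.75 in WT and Med28 by 1.14 in KO and 1.25 in WT.

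Med30, another metazoan subunit, had the highest mean of the 33 members in WT early 2-cell embryos, a place that rested on WT replicate 2: without it Med15 averaged 132, Med27 126 and Med30 122. It was at 110, 118 and 135 in KO, against 118, 203 and 126 in WT at E2C. Zygotes had 76.6 to 83.7 in KO and 72.2 to 84.3 in WT. At L2C it stood at 34.7, 59.8 and 52.8 in KO, against 8.77, 12.1 and 42.0 in WT, below every E2C library. The log2 difference of L2C over E2C was -1.31 in KO (limma adjusted p = 0.00533) and -3.04 in WT (adjusted p = 2.84e-07). Med15, the subunit that SREBP factors bind in human cells, had the highest mean of the members in zygotes of both genotypes, at 95.0 to 100.6 in KO and 89.7 to 93.6 in WT. At E2C it was at 122 to 159 in KO, and at 143, 60.0 and 121 in WT. Med15 rose from MII to PN3 in both genotypes, by 0.34 in KO and 0.45 in WT. Med27 rose over the same step by 0.24 in KO and 0.23 in WT.

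In the kinase module, Cdk8 was far above its paralog Cdk19. Cdk8 was at 38.8 and 39.1 in KO, against 42.6, 39.7 and 37.0 in WT oocytes. In late 2-cell embryos it was at 84.3, 92.0 and 90.5 in KO, against 95.9, 83.0 and 78.1 in WT. The late 2-cell libraries were all above the oocyte libraries, and the log2 difference was 1.17 ± 0.16 in KO (SE; limma adjusted p = 1.06e-06) and 1.08 ± 0.16 in WT (adjusted p = 2.05e-06). Cdk19 was below 1 in every library before L2C. At L2C it was at 2.15, 2.42 and 2.88 in KO, against 4.45, 3.68 and 3.48 in WT, a called rise over oocytes of 0.91 in KO and 1.47 in WT. Cyclin C (Ccnc), the partner of both kinases, went the other way. It was at 8.31 and 10.1 in KO, against 10.1, 9.95 and 9.76 in WT oocytes. In late 2-cell embryos it was at 2.19, 4.00 and 4.14 in KO, against 9.37, 3.99 and 5.65 in WT. The fall was 1.23 in KO and 0.64 in WT (log2). Its KO libraries at L2C were all below the KO oocyte libraries, and the WT ones were all below the WT oocyte libraries.

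Med13, which tethers the kinase module to the core, rose most in this module. It was at 6.89 and 7.46 in KO, against 8.45, 7.72 and 7.47 in WT oocytes. In late 2-cell embryos it was at 31.3, 40.6 and 39.5 in KO, against 46.5, 46.2 and 47.1 in WT. All late 2-cell libraries exceeded all oocyte libraries. The log2 difference was 2.21 ± 0.19 in KO (SE; limma adjusted p = 7.37e-10) and 2.42 ± 0.19 in WT (adjusted p = 8.78e-11). Its paralog Med13l rose by 0.56 in KO and 0.85 in WT. Med12, which activates the kinase, fell from MII to PN3 by 1.09 in KO and 0.92 in WT, and its paralog Med12l rose from MII to L2C by 0.58 in KO and 0.84 in WT.

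The balance within the paralog pairs differed between stages in both genotypes. Med12l had 14.6% of the summed Med12 and Med12l level in KO and 16.6% in WT oocytes, and 32.8% in KO and 32.0% in WT zygotes. It had 48.7% in KO and 49.1% in WT at E2C, and 45.7% in KO and 45.6% in WT at L2C. Med13l had 61.5% of the summed Med13 and Med13l level in both KO and WT oocytes, and 32.1% in KO and 33.5% in WT late 2-cell embryos. The Med13l to Med13 ratio was above 1 in every library before L2C and at most 0.612 at L2C. Cdk19 had 2.71% ± 0.324 of the summed Cdk8 and Cdk19 level in KO and 4.31% ± 0.105 in WT late 2-cell embryos (SD, n = 3 each). The KO libraries there, at 2.49 to 3.08%, did not overlap the WT libraries, at 4.24 to 4.43%. The Cdk19 share also did not overlap at MII, but in the other direction, at 2.09 to 2.164% in KO and 1.781 to 1.955% in WT. In a 2-sided exact permutation test of the log2 ratio the difference at L2C had p = 0.1 and that at MII p = 0.2. These are the smallest values that 3 against 3 and 2 against 3 libraries allow. Both were among 12 such tests of KO against WT, over 3 pairs and 4 stages, and the lowest adjusted p among them was 0.6.

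**Figure D3:**
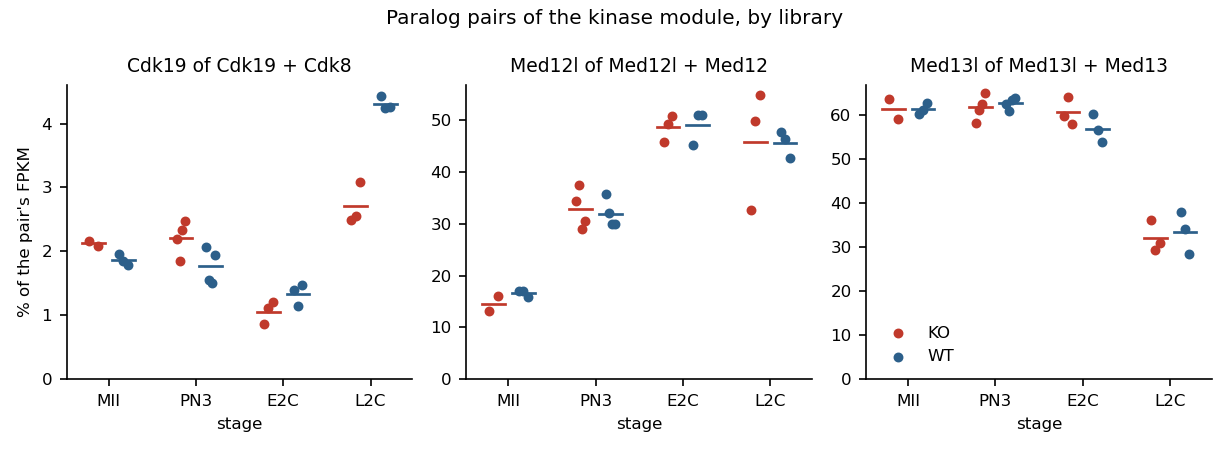
Share of the first-named paralog in the summed scaled FPKM of its pair (y axis, percent, linear from 0) at each stage (x axis), with KO left of WT. Points are libraries and bars are group means; Med12l is at 45.17% or more in every E2C library, and Med13l at 37.96% or less in every L2C library.

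Counted over all members, the oocyte to late 2-cell interval moved most of the complex in both directions. In KO, 12 members were called higher and 13 lower (limma, adjusted p under 0.05). Of all 12086 genes tested, 68.7% were called in KO, 38.1% higher and 30.6% lower. In WT, 12 members were called higher and 12 lower, and 73.6% of all genes were called, 40.5% higher and 33% lower. The members' shares called, 75.8% in KO and 72.7% in WT, were close to these backgrounds. Of these calls 10 higher ones (Med1, Med14, Med16, Med25, Med29, Cdk8, Cdk19, Med12l, Med13 and Med13l) and 11 lower ones (Med6, Med8, Med17, Med22, Med7, Med19, Med21, Med23, Med28, Ccnc and Med12) were shared by KO and WT. Med15 and Med27 were called higher and Med11 and Med18 lower in KO and not in WT, and Med9 and Med24 higher and Med30 lower in WT and not in KO. The difference between the genotypes in the change over this whole interval was not tested. The head module had 6 lower calls in KO and 4 in WT among its 7 members and no higher call in either. The median log2 difference of the head was -0.88 in KO and -0.58 in WT, of the kinase module 0.58 in KO and 0.85 in WT, and of all genes tested 0.13 in KO and 0.14 in WT. With Med27 to Med30 counted in the head, its medians were -0.75 in KO and -0.58 in WT.

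**Figure D4:**
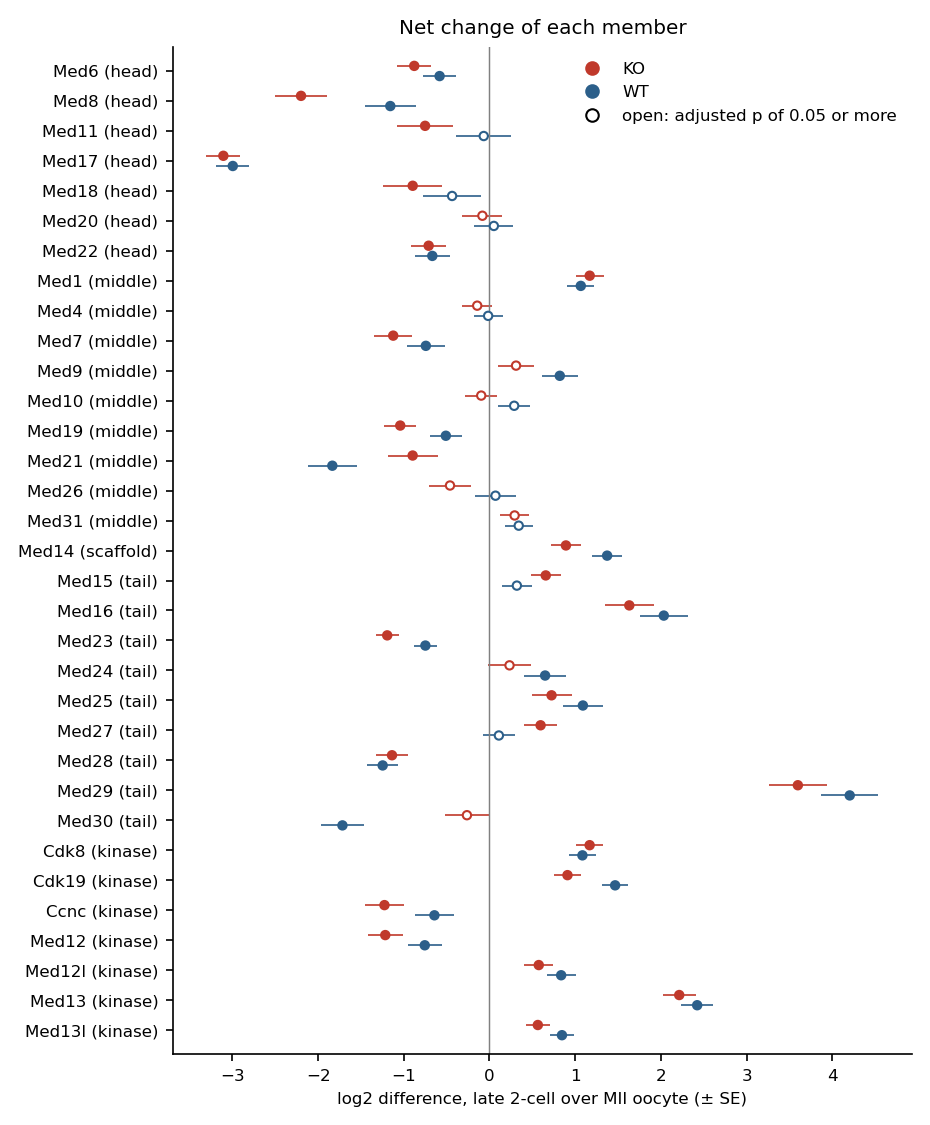
Log2 difference of late 2-cell embryos over MII oocytes (x axis) for each of the 33 members (y axis, by module), KO above WT. Bars are standard errors and filled points have an adjusted p under 0.05; Med29 and Med13 lie furthest right and Med17 furthest left in both genotypes.

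Step by step, the calls ran in both directions. From MII to PN3, 6 members were called higher and 13 lower in KO, where 40.8% of all genes were called, 17.6% higher and 23.1% lower. In WT 7 members were called higher and 12 lower, where 45.2% of all genes were called, 19.2% higher and 26% lower. Of these calls 6 higher and 11 lower ones were shared. The largest falls were Med7, Med12, Med11 and Med29 in both genotypes, and Med30 and Med15 were among the largest rises. With 1 spread shared by all stages only 4 members were called in KO and 4 in WT, and these were the falls of Med7, Med14, Med29 and Med12 in both. From PN3 to E2C, 3 members were called higher and 7 lower in KO, where 21% of all genes were called, 8.86% higher and 12.2% lower. In WT 6 were called higher and 11 lower, where 30.9% of all genes were called, 12.9% higher and 18% lower. All 7 members called lower in KO (Med8, Med17, Med20, Med7, Med19, Med26 and Ccnc) were called lower in WT too. The head had 3 lower calls of 7 in KO and 6 of 7 in WT, its median log2 difference was -0.61 in KO and -1.15 in WT, and that of all genes 0.00 in KO and -0.05 in WT. With Med27 to Med30 counted in the head its median was -0.25 in KO and -1.11 in WT. The higher calls of this step depended on scaling: with FPKM as deposited the split was 0 higher and 10 lower in KO and 1 higher and 12 lower in WT, and with TPM it was 1 higher and 8 lower in KO and 1 higher and 12 lower in WT. FPKM as deposited moved the median of all genes in this step to -0.10 in KO and -0.20 in WT. Leaving out KO E2C replicate 1 left 1 member called in KO. Leaving out WT E2C replicate 1 left 11 called in WT, and without WT E2C replicate 2 the head had 5 lower calls of 7 in WT.

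From E2C to L2C, 9 members were called higher and 4 lower in KO, where 40.8% of all genes were called, 26.9% higher and 13.9% lower. In WT 15 were called higher and 4 lower, where 52.5% of all genes were called, 34.2% higher and 18.3% lower. All 9 of the higher calls in KO (Med20, Med4, Med7, Med9, Med14, Med16, Med29, Cdk19 and Med13) were called in WT. Med8, Med11, Med26, Med25, Cdk8 and Ccnc were called higher in WT and not in KO, and the difference between the genotypes was called for none of the 33. The median log2 difference of the members was 0.02 in KO and 0.54 in WT, against 0.15 in KO and 0.25 in WT over all genes tested. With no filter on low values the median over all genes was 0.00 in KO and 0.01 in WT.

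Before the first cleavage no member's difference between the genotypes exceeded 0.29 on the log2 scale. At MII, 0 of 33 members were called between KO and WT, against 12.9% of all genes tested; 5 had an unadjusted p under 0.05. The smallest p belonged to Med15, at 82.1 and 71.4 in KO, against 67.9, 63.1 and 69.7 in WT (log2 0.19 ± 0.07, SE; limma adjusted p = 0.0531). Med25 followed at 0.25 (adjusted p = 0.0610) and Med17 at -0.20 (adjusted p = 0.0837). With the MII libraries fitted alone, Med8 was called higher in KO (29.6 and 27.7, against 24.0, 23.9 and 25.3 in WT; log2 0.22, adjusted p = 0.0493), and the calls also moved with single libraries. Without KO MII replicate 2 the count was 4, and without KO MII replicate 1 it was 2 (Med29 and Med13l). Each of these counts rests on 1 remaining KO library, whose spread is borrowed from the other groups. The share of all genes called in the same fits is not given here. Med15 was called without WT E2C replicate 1, WT E2C replicate 2 or WT L2C replicate 3, and Med17 without WT L2C replicate 1. All 33 differences lay between -0.20 and 0.25, and their 95% intervals between -0.39 and 0.49.

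At PN3, 0 of 33 members were called, against 3.06% of all genes tested, and 3 had an unadjusted p under 0.05. These were Med9 at 0.28 (limma adjusted p = 0.106), Med16 at -0.29 (adjusted p = 0.245) and Med23 at -0.13 (adjusted p = 0.276). Fitted alone, the PN3 libraries also gave 0 calls, while without KO PN3 replicate 1 Med9 was called (adjusted p = 0.0486). The 95% intervals of the 33 differences lay between -0.55 and 0.49.

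At E2C, 0 of 33 members were called by limma, against 0.00827% of all genes tested, which is 1 gene. With the E2C libraries fitted alone the count was 0, and with 1 spread shared by all stages it was 1, Med17 (adjusted p = 0.0472). The 3 members with an unadjusted p under 0.05 were head genes: Med11 at 1.47 (adjusted p = 0.701), Med17 at 0.89 ± 0.29 (SE; adjusted p = 0.701) and Med8 at 1.27 (adjusted p = 0.75). Med17 did not overlap between the genotypes, at 13.7, 14.2 and 17.8 in KO, against 7.62, 5.87 and 10.3 in WT. For Med8 and Med11 some WT libraries were listed at 0, as given above, and without WT E2C replicate 2 the differences were 0.44 for Med8, 1.20 for Med11 and 0.71 for Med17. The log2 difference was positive for 7 of 7 head members, with a median of 0.89, and for 55.9% of all genes tested, with a median of 0.05. With Med27 to Med30 counted in the head it was positive for 7 of 11, with a median of 0.32. Without WT E2C replicate 2 it was positive for 6 of the 7, with a median of 0.49. The head sums were 72.3, 85.4 and 118 in KO and 63.4, 46.3 and 75.7 in WT, and overlapped. KO replicate 3, the highest, also held the most of the ribosomal RNA precursor Rn45s, at 10915 against 812 and 1030 in KO replicates 1 and 2. In WT E2C Rn45s was at 2595, 2208 and 7357. The 95% intervals were wide here, from -1.42 to 2.48 over the 33 members. The 6 markers of the 2-cell embryo summed to 54.3, 45.4 and 110 in KO and 115, 126 and 195 in WT at E2C. Every KO library was thus below every WT library. The 8 oocyte markers summed to 962, 995 and 1237 in KO and 937, 828 and 1270 in WT, and overlapped. The part of the marker differences in the head result at E2C was not tested.

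**Figure D5:**
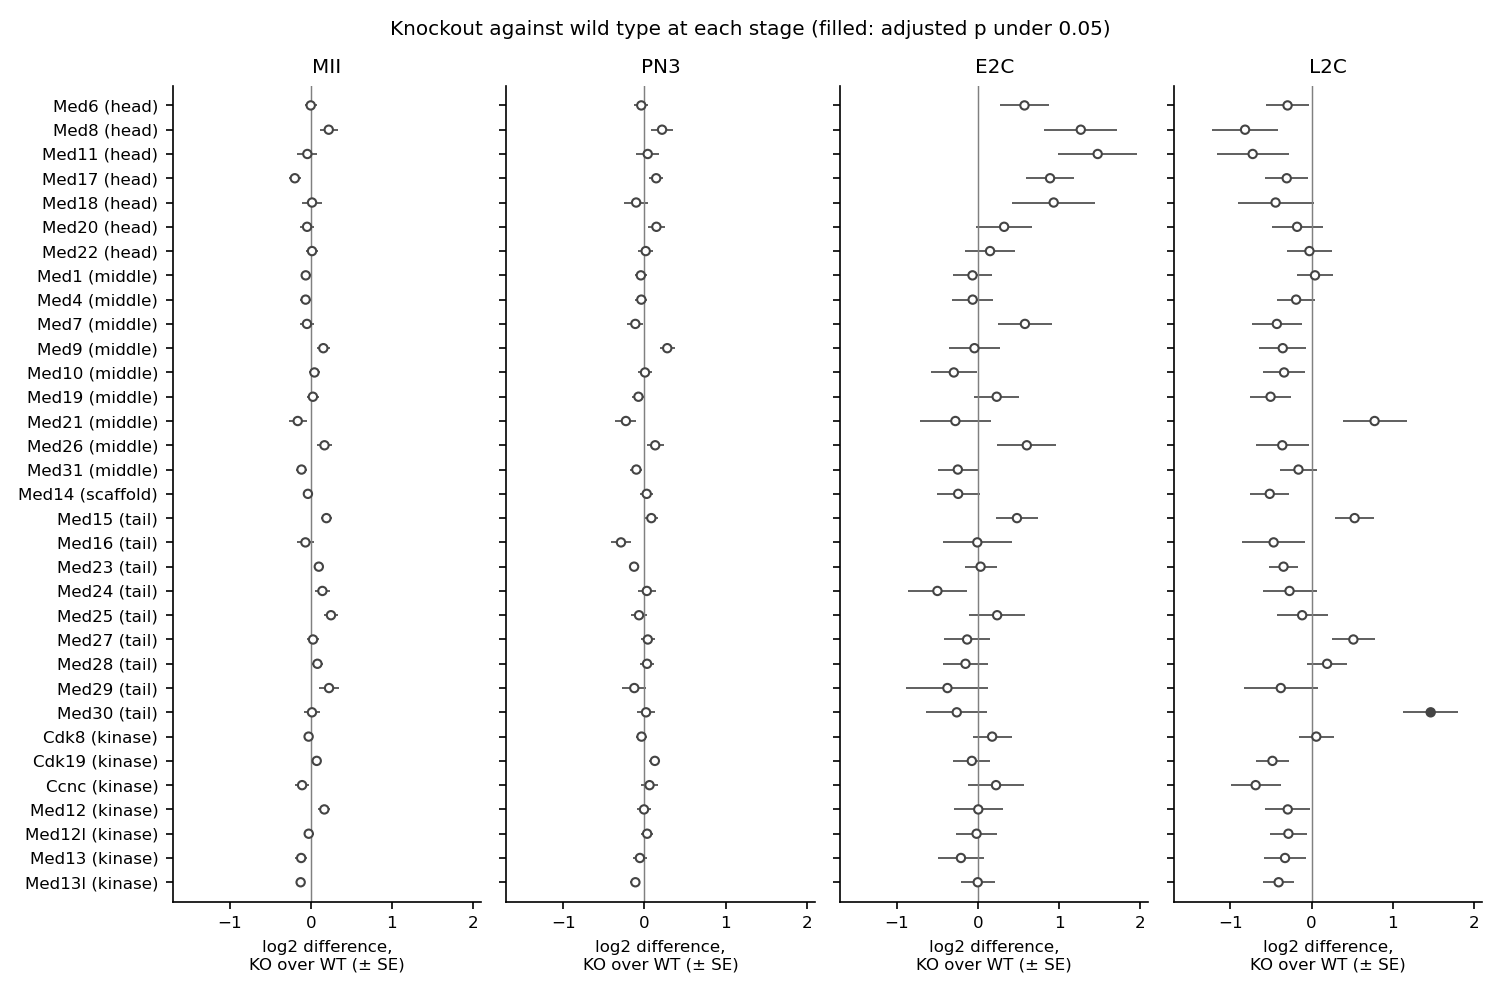
Log2 difference of KO over WT (x axis) for each of the 33 members (y axis, by module) at each stage (panels). Bars are standard errors and the filled point has an adjusted p under 0.05; the differences lie between -0.29 and 0.28 at MII and PN3 and spread wider at E2C and L2C, where Med30 at L2C is the one filled point.

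At L2C, Med30 was the one member called, higher in KO (34.7, 59.8 and 52.8) than in WT (8.77, 12.1 and 42.0), against 0.761% of all genes called. WT replicate 3 stood among the KO libraries. The log2 difference was 1.47 ± 0.34 (SE; limma adjusted p = 0.0447), close to the threshold. The call held under 8 of 34 alternative settings, and the adjusted p ran from 1.23e-06 without WT L2C replicate 3 to 0.331 without WT L2C replicate 1. With the L2C libraries fitted alone it was 0.259, and 0 of the 33 were called. The oocyte markers also differed between these libraries: their sum was 620, 845 and 870 in KO and 285, 352 and 760 in WT, listed by replicate as for Med30. In WT they ranked as Med30 did. In KO replicate 2 was highest for Med30 and replicate 3 for the oocyte markers. The 6 markers of the 2-cell embryo summed to 136, 168 and 171 in KO and 67.5, 61.1 and 205 in WT. The part of the marker differences in the Med30 result was not tested.

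Among the other members at L2C, Med15 was at 128, 118 and 118 in KO, against 72.6, 74.7 and 108 in WT (log2 0.53 ± 0.24, SE; limma adjusted p = 0.245). Every KO library was above every WT library, with WT replicate 3 again nearest. Cdk19 was at 2.15, 2.42 and 2.88 in KO, against 4.45, 3.68 and 3.48 in WT (-0.48 ± 0.21; adjusted p = 0.223). Med14 had a difference of -0.52 (adjusted p = 0.267), Ccnc of -0.69 (adjusted p = 0.247) and Med13l of -0.41 (adjusted p = 0.276). The difference was negative for 26 of 33 members, with a median of -0.31, and 45.7% of all genes tested had a positive one, with a median of -0.05. The head was negative for 7 of 7, with Med27 to Med30 counted in it for 8 of 11, and without WT L2C replicate 3 for 6 of 7. Without that library 7 members were called: Med15, Med27 and Med30 higher and Med8, Med17, Med14 and Med13l lower in KO. The share of all genes called without it is not given here, so the 7 cannot be set against a background.

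The change in the KO difference from one stage to the next was tested directly as an interaction in the same limma fit. Between MII and PN3 it was called for 0 of 33 members, against 2.29% of all genes tested, with 3 at an unadjusted p under 0.05 (Med17, Med23 and Med25). Between PN3 and E2C it was called for 0, against 0% of all genes, with 3 at an unadjusted p under 0.05 (Med11, Med17 and Med8). Between E2C and L2C it was called for 0, against 0.00827% of all genes, with 6 at an unadjusted p under 0.05. These were Med8 at -2.09, Med11 at -2.20, Med17 at -1.19, Med7 at -1.01 and Med6 at -0.87, each lower, and Med30 at 1.73, higher (lowest adjusted p = 0.267). With 1 spread shared by all stages 5 members were called in this last test, with a weight for each library 6, and without WT L2C replicate 3 it was 4 (Med8, Med11, Med17 and Med30). In the other interactions the alternatives called 0 members, except for Med25 between MII and PN3 without KO MII replicate 2.

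Genes that work with Mediator at promoters were counted over the same interval, in which 68.7% of all genes were called in KO and 73.6% in WT. Of 13 RNA polymerase II subunits, 7 were called higher and 4 lower from MII to L2C in KO, and 6 higher and 3 lower in WT, a share called of 84.6% in KO and 69.2% in WT, with a median log2 difference of 0.56 in KO and 0.34 in WT. Of 18 general transcription factor genes, 5 were higher and 9 lower in KO, and 6 higher and 4 lower in WT, a share called of 77.8% in KO and 55.6% in WT, with medians of -0.47 in KO and -0.10 in WT. Of 7 cohesin and loader genes, which act with Mediator at enhancer loops, 3 were higher in each genotype, with 1 lower in KO and 2 in WT, a share called of 57.1% in KO and 71.4% in WT, and medians of -0.10 in KO and 0.39 in WT. Between KO and WT, the members of these 3 lists that were called were Polr2c and Gtf2a1, both higher in KO at MII, with log2 differences of 0.19 for Polr2c and 0.27 for Gtf2a1. They made up 7.69% of the polymerase subunits and 5.56% of the general factors, below the 12.9% of all genes called at MII.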

How the data were processed

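The 25 deposited files hold 1 FPKM value for each of 24412 gene symbols, made by the authors from stranded, ribosome-depleted libraries read in pairs of 150 bases, per the labels' protocols. Per the submitters' processing notes, the tools were HTSeq, StringTie, HISAT2 and Trim Galore (version 0.4.5) and the builds GRCm38 and mm10, listed without roles. The sources used here do not say which tool produced FPKM or whether it used strand. The low FPKM values share no common step (the fullest bin of 0.02 on the log2 scale held 1.5% of 1667 low genes), so reads could not be recovered and the depth, and with it the counting error, is unknown.

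Libraries were rescaled by the median ratio over the 6492 genes that reached an FPKM of 1 in all libraries. Genes at 1 or more in at least 3 libraries were kept, which left 12086, and values were taken as log2(FPKM + 1), a scale that understates the change of low genes. A linear model with 1 mean per stage and genotype was fitted over all 25 libraries with limma 3.58.1 in R 4.3.3. It used a weight for each stage (5.27 for MII, 2.26 for PN3, 0.264 for E2C and 0.319 for L2C) and moderated variances with trend and robust prior. P-values were adjusted by Benjamini-Hochberg over all 12086 genes and called under 0.05. Steps and genotype differences were contrasts of this fit. The pipeline was tested on simulated data, in which the weighted fit let through more false calls than each stage fitted alone. That simulation scored the comparisons of KO with WT only, and the genotype counts are therefore given with both fits. The steps between stages were not scored, and the p-values printed for them come from the weighted fit. Ratios of paralogs were compared by exact permutation tests in scipy 1.17.1, and figures drawn with matplotlib 3.10.9. Alternatives changed the weights, the scaling, the pseudocount (0.1), the filter, the libraries left out and a block on the replicate number.

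The members, modules, other gene lists and settings were chosen with earlier results of these data known. The text names Cdk8, Cdk19, Ccnc, Med12, Med12l, Med13, Med13l, Med14, Med1, Med15 and Med17 throughout, the 5 largest called rises and falls of each comparison, and the 3 smallest p-values where fewer than 5 were called. Other members are named as part of a list or count, or were chosen after their values were seen. Exon overlaps were taken from the GENCODE vM21 annotation and promoters from RefSeq, both on GRCm38. One further list of genes that act with Mediator is not reported here.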

Additional observations from a re-analysis of the deposited data

Results flagged for a closer look

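Each member was checked for a single library far from the rest of its group, in groups of 4 libraries. Only the PN3 groups have 4 libraries, so MII, E2C and L2C were not tested. The check flagged 3 of 66 cases, each being 1 member in 1 genotype, and chance flags about 1 in 20 such cases. Med18 was at 6.45 in KO PN3 replicate 3, above 4.64, 4.74 and 4.90 in the other KO zygotes. Med23 was at 27.2 in the same library, above 23.8, 23.8 and 24.1. Med12 was at 3.20 in WT PN3 replicate 1, below 3.88, 3.96 and 3.99 in the other WT zygotes.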

How the results depend on the processing

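Over 110 results for members named because they were called or had the smallest p-values, 3642 values were recomputed under other settings. Of these, 3476 kept their direction and their side of the threshold, 15 crossed to a call, 151 lost one and 0 changed direction. Over all 132 differences between KO and WT (33 members at 4 stages), 54 changed sign under at least 1 alternative, each of them at most 0.32 in size (log2) in the fit reported here. The counts of members called moved more, and the cause was not tested beyond the fewer libraries or the different spread that a setting uses. For these settings, here and above, the share of all genes called is not given. A changed count of members therefore cannot be told apart from a change in calls over all genes. For KO against WT at MII the count of 0 became 1 with library weights, 2 with FPKM as deposited, 1 with a replicate block (Med25, adjusted p = 0.0426) and 1 with each stage fitted alone. At PN3 it became 1 with a replicate block (Med9, adjusted p = 0.0445), and at E2C 1 with no weights. At L2C the count of 1 became 6 with no weights, 9 with library weights, and 0 with no filter, without both E2C replicates 3 and with each stage fitted alone. From MII to PN3 no weights gave 4 calls in KO, where 19 were called, and 4 in WT. From PN3 to E2C the 10 calls in KO became 17 with no weights, 19 with library weights and 5 without both E2C replicates 3, and the 17 in WT became 11 without both E2C replicates 3. The interaction between E2C and L2C became 5 with no weights and 6 with library weights.

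Leaving out each library in turn gave 0 to 4 calls for KO against WT at MII, 0 to 1 at PN3, 0 to 0 at E2C and 0 to 7 at L2C. From MII to PN3 it gave 14 to 20 in KO and 19 to 20 in WT, from PN3 to E2C 1 to 16 in KO and 11 to 18 in WT, from E2C to L2C 9 to 17 in KO and 15 to 20 in WT, and from MII to L2C 21 to 25 in KO and 22 to 25 in WT. The interactions gave 0 to 1, 0 to 0 and 0 to 4. Counting Med27 to Med30 in the head moved 7 of 24 head and tail medians by more than the spread between replicates (1 SD) and turned the sign of 6. Of these, the tail's median from E2C to L2C was then 0.44 in KO and 0.37 in WT, in place of -0.15 in KO and -0.28 in WT.

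Same-numbered KO and WT libraries shared deviations with correlations of -0.119 and 0.045 at MII, 0.012 to 0.428 at PN3, 0.066 to 0.160 at E2C and -0.183 to 0.216 at L2C, so the numbers were not taken as pairs. Each KO library correlated best with its own number at E2C (3 of 3), but not at PN3 (2 of 4) or L2C (1 of 3). The replicate block changed no other count by more than 1.5 times.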
